A study of Homo sapiens with 10 samples.

Results

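The nuclear-encoded subunits of the oxidative phosphorylation (OXPHOS) complexes were followed at the mRNA level in MDA-MB-231 cells during exposure to dasatinib. Members were chosen by gene symbol alone, as the NDUFA, NDUFB, NDUFC, NDUFS and NDUFV genes of complex I, the SDHA to SDHD genes of complex II, the UQCR genes of complex III, the COX4 to COX8 genes of complex IV and the ATP5F1, ATP5M and ATP5P genes of complex V. The symbol patterns matched 115 rows, of which 33 pseudogene and readthrough rows were left out. This gave 82 members among the 36687 gene rows, with 37 in complex I, 4 in complex II, 8 in complex III, 17 in complex IV and 16 in complex V. The complexes too were assigned by symbol, so NDUFA4 was counted in complex I although its product is known from complex IV.

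MDA-MB-231 is an established human breast adenocarcinoma line, labelled wild type here, and dasatinib inhibits kinases of the SRC family and ABL. Bulk RNA-seq was deposited for 10 libraries, 2 labelled biological replicates at each of 0, 6, 12, 24 and 48 h. The 0 h cells are titled Sham, although their treatment field also names dasatinib. No untreated cells were sampled at the later times. The drug and the time in culture thus cannot be told apart in any difference from 0 h.

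OXPHOS joins the oxidation of NADH and succinate to ATP synthesis at the inner mitochondrial membrane. Electrons pass from complex I or complex II through complex III to complex IV, protons are pumped on the way, and complex V, the ATP synthase, uses their return to make ATP. A small set of subunits is encoded in mitochondrial DNA, and all others are made from nuclear genes and imported. The nuclear genes divide into core subunits, which include those that carry redox centres or catalytic sites, and accessory subunits that surround them.

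Library totals ran from 40942913 to 49133774 counts. The line expressed VIM at 633 to 913 TPM and MSN at 572 to 756 TPM (the deposited length-corrected level), whereas ESR1, PGR and CDH1 did not exceed 0.144 TPM in any library and TWIST2 was at 0. KRT8, KRT18 and KRT19, keratins on the luminal marker list, lay between 150.2 and 341 TPM. The other markers of that list were expressed in every library, at levels above ESR1 and below these keratins. Of 6 haematopoietic markers only CD14 exceeded 1 TPM, reaching 4.54 TPM, and no striated muscle marker exceeded 1.83 TPM. CD14 made up most of the haematopoietic sum, which ran from 0.418 to 1.47 TPM at 0 and 6 h and from 2.91 to 4.63 TPM at 24 and 48 h, with CD3E and HBA1 at 0, and its part in the results was not tested. One library stood apart. Replicate 1 at 12 h correlated with its closest library at 0.955 (Pearson r of log2 CPM across genes), against 0.983 to 0.987 for the other 9, and it is treated first because the members showed the difference strongly. In bulk RNA, fewer cells and less RNA per cell cannot be told apart. P-values measured only the spread between these samples.

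The nuclear members were far lower in replicate 1 than in replicate 2 at 12 h. Of 76 members with counts in both libraries, 72 were lower in replicate 1, with a median log2 ratio of -0.97, while the median over 14755 genes was 0.00. The gap was widest in complex IV, at a median of -1.58, and narrowest in complex II, at -0.54. TMM-scaled counts relative to library size (CPM) for COX6A1, a complex IV subunit, were 7.56 in replicate 1 and 43.9 in replicate 2. For ATP5MF, a subunit of the membrane part of complex V, they were 9.47 and 45.8. NDUFS1, the large iron-sulphur subunit of complex I, went the other way, with 156 CPM in replicate 1 and 140.4 in replicate 2.

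The 13 mRNAs of mitochondrial DNA had a median log2 ratio of 0.61 for the same libraries, opposite in sign to the nuclear members, although 3 of the 13 were lower in replicate 1. The median absolute log2 difference between replicates was 1.08 over the members at 12 h and between 0.07 and 0.12 at the other 4 times. The ratio of the 12 h libraries followed gene length. Across 73 members the Pearson r with log2 length was 0.50, and across 10968 genes above 4 CPM it was 0.55, where the genes share the same pair of libraries and are not independent. Members were short, with a median length of 2324 bases against 4892 bases over all genes tested, and 81.8% of them were shorter than the median gene. The part of length or RNA quality in the 12 h values was not tested. Counts against 0 h, and at 48 h against 6 h, are therefore given with all 10 libraries and without 12 h replicate 1. Leaving out 12 h replicate 2 in its place raised the calls at other times to similar counts, since either step takes the difference between the 12 h libraries out of the estimated spread. In that fit 25 members were higher at 6 h (9.68% of all genes higher, 9.36% lower), 22 were higher and 9 lower at 24 h (19.2% and 20.4%), 46 were lower at 48 h (24.1% and 25.6%) and 61 were lower at 48 h than at 6 h (23.9% and 25.7%).

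**Figure D1:**
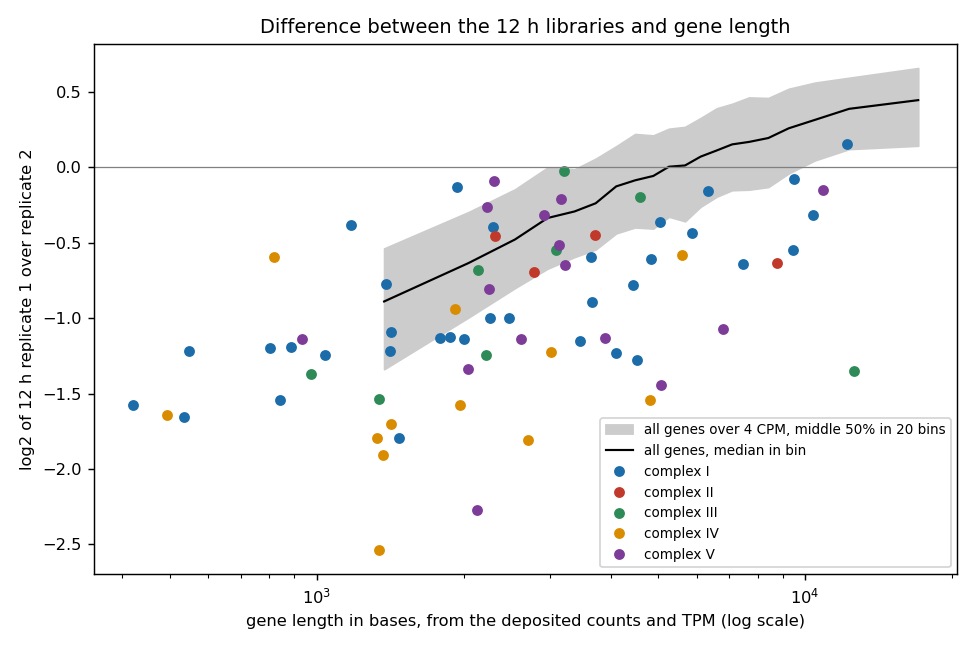
Log2 ratio of the 12 h libraries (replicate 1 over replicate 2) against gene length in bases on a log axis, with points for members coloured by complex, a black line for the median of all genes above 4 CPM in 20 length bins and grey for their middle 50%. Short genes sit below 0 and long genes above it, and 72 of 76 members with counts were lower in replicate 1.

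Of the 82 members, 77 passed the filter on low counts and were tested. COX4I2, COX6A2 and COX8C had 0 counts in every library. COX6B2 held 36 counts over all libraries and ATP5MGL 14. These 5 were not tested, and 4 of them are tissue-restricted isoforms of complex IV. Levels of the others are compared per length, in TPM at 0 h. ATP5F1B, the catalytic beta subunit of the ATP synthase, had the highest level at 1747 TPM, followed by the complex I accessory subunit NDUFS5 at 724 TPM and ATP5PB, the peripheral stalk subunit b, at 515 TPM. Complex medians were 49.97 TPM for complex I, 97.6 for complex II, 117 for complex III, 111 for complex IV and 89.1 for complex V.

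Isoform use was clear-cut in complex IV. COX4I1 (203 TPM), COX6A1 (93.6 TPM), COX6B1 (260.1 TPM) and COX8A (435 TPM) were abundant while their tissue-restricted partners COX4I2, COX6A2, COX6B2 and COX8C were at or near 0. The muscle-type isoform COX7A1 was at 0.472 TPM beside 152 TPM for COX7A2. COX7B2, the isoform of COX7B best known from testis, was the exception, with 117 TPM at 0 h beside 82.8 TPM for COX7B. This order depended on length, 817 bases for COX7B2 and 3025 bases for COX7B, the summed exonic bases of each gene. Before division by length COX7B was the higher, at 87.4 and 59.4 CPM at 0 h against 30.5 and 25.5 CPM. Which transcripts were expressed was not tested. In complex V, all 3 genes of the c-ring were expressed, ATP5MC1 at 134 TPM, ATP5MC2 at 127 and ATP5MC3 at 95.5. These 3 genes encode the same mature protein.

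Some core subunits had low levels beside their partners. SDHA, the flavoprotein of complex II, was at 3.88 TPM where SDHB, its iron-sulphur partner, was at 153 TPM. NDUFV2 was at 2.04 TPM where NDUFV1, its partner in the NADH-binding part of complex I, was at 86.8 TPM. NDUFA7 was at 1.00 TPM and NDUFA13 at 2.40 TPM. In the GENCODE v44 annotation, 17 members share 20% or more of their exonic bases with another gene. The share was 28.4% for NDUFV2, 21.7% for SDHA, 32.5% for NDUFA7, 21.0% for NDUFA13, 51.5% for NDUFS7 and 61.3% for ATP5ME, and 31 members have pseudogene rows in the files. The annotation and the strand setting of the authors' counting are not stated, so levels of these genes are uncertain. How reads over shared exons were counted was not tested.

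Promoters are shown for 5 members with different time courses, so that the sequence stands beside the values that follow. ATP5MC1, NDUFC1 and SDHB were lower at 48 h, COX8A passed at 48 h by edgeR without 12 h replicate 1 but not with all libraries, and COX5B did not pass in either fit. Each is the longest run, within 250 bases before the RefSeq start site, that lies outside annotated exons, printed 5' to 3' on the gene's strand from RefSeq (GRCh38.p14). Capitals mark matches on either strand to CCGGAAG (ETS core), CGCATGC (NRF1), ATGGCGG (YY1), AAGGTCA (estrogen-related receptor) or GGGCGG (SP). A pair of these motifs abut in COX5B.
ATP5MC1 promoter, chr17:48892678-48892764, plus strand: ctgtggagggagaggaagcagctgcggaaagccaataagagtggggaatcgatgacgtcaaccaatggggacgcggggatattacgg
NDUFC1 promoter, chr4:139302552-139302801, minus strand: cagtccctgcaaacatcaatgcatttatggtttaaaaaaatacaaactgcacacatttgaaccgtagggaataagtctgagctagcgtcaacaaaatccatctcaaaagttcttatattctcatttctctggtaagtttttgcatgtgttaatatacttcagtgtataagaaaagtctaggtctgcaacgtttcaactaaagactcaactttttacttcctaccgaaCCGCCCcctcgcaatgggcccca
SDHB promoter, chr1:17054033-17054282, minus strand: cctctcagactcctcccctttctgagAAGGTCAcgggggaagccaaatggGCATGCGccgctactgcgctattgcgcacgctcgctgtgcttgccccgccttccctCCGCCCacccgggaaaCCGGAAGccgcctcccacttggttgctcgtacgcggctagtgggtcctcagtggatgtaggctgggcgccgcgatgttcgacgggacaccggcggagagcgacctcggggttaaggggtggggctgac
COX8A promoter, chr11:63974370-63974619, plus strand: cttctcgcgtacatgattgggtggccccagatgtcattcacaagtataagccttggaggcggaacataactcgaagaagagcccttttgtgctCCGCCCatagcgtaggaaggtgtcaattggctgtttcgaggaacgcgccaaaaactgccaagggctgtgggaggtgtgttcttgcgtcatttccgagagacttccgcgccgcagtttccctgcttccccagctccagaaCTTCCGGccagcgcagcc
COX5B promoter, chr2:97645812-97646061, plus strand: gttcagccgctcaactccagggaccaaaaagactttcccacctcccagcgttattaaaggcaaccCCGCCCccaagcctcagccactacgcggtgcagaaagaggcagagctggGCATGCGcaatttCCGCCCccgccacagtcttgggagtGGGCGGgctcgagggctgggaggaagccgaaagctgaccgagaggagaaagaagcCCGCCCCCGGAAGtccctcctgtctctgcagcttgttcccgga

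RefSeq gave a 300-base promoter for 66 of the 82 members, and for 9 of these its start site lay more than 1000 bases from the gene start in GENCODE v44. The ETS core was in 28.8% of them, the NRF1 motif in 19.7%, YY1 in 28.8%, the estrogen-related receptor motif in 12.1% and SP in 59.1%. Over the 12160 tested genes with a promoter the shares were 17.9%, 6.16%, 9.37%, 2.74% and 67%, in the same order, and over all 27305 promoters they were 10.7%, 4.13%, 5.72%, 3.97% and 44.6%. Of 14 members that were lower at 48 h and had a promoter, 2 held the ETS core, 4 the NRF1 motif, 6 YY1, 3 the estrogen-related receptor motif and 10 SP. Of 49 tested members that did not pass, the numbers were 17, 9, 13, 5 and 28. Among 68 mitochondrial ribosomal protein genes with a promoter the ETS core was in 41.2%, NRF1 in 10.3%, YY1 in 35.3%, the estrogen-related receptor motif in 4.41% and SP in 60.3%. A match describes letters and not binding, and the printed ATP5MC1 stretch held none of the 5 motifs.

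The question of the time course is how the transcriptome changed from 0 h. At 6 h the members were more often above than below the 0 h cells. Both 6 h libraries exceeded both 0 h libraries for 48 of the 77 tested members and lay under both for 9, where 29.3% of all genes were above and 28.8% below. The median log2 fold change was 0.19, against 0.01 over all genes. By edgeR with all 10 libraries, however, 0 members were higher and 0 lower at an adjusted p of 0.05, where 1.24% of all genes were called higher and 1.49% lower. At an unadjusted p under 0.05, 3 members were higher and 0 lower, and DESeq2 called 1 higher and 0 lower. Without 12 h replicate 1, edgeR called 25 members higher and 0 lower, where 9.89% of all genes were called higher and 9.47% lower.

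Complex IV showed the 6 h rise most evenly, with all 13 tested subunits having a positive log2 fold change and a median of 0.29. COX8A, a small accessory subunit of complex IV, was 58.4 and 67.2 CPM at 0 h and 90.5 and 95.7 CPM at 6 h, so that the groups did not overlap. Its log2 fold change was 0.57 ± 0.37 (SE) with an edgeR adjusted p of 0.526, and without 12 h replicate 1 it was 0.57 with an adjusted p of 1.47e-05. NDUFA1, an accessory subunit of complex I, stood at 36.4 and 42.9 CPM at 0 h and at 60.4 and 57.6 CPM at 6 h. Here too both treated values were higher, with an edgeR adjusted p of 0.513 and, without that library, 0.00013. ATP5F1E, the epsilon subunit of the ATP synthase, measured 118 and 96.3 CPM at 0 h and 167 and 155 CPM at 6 h, with edgeR adjusted p of 0.468 and 9.36e-05 in the same order.

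ATP5ME had the largest fold change at 6 h, from 3.41 and 2.84 CPM to 8.01 and 6.16 CPM, a log2 difference of 1.18 ± 0.36 (SE, edgeR adjusted p = 0.138, or 0.00065 without 12 h replicate 1). It is the gene with the largest shared exon fraction among the members. Most catalytic subunits stayed near their starting values. ATP5F1B was at 1132 and 1156 CPM at 0 h and at 1066 and 1058 CPM at 6 h, and SDHB at 104 and 104 CPM and at 106 and 110.1 CPM. A core list of 23 was set apart, holding the nuclear redox and catalytic subunits and NDUFS3. In complexes II to V it also held anchors, matrix core proteins, COX4I1, COX5A, COX5B and ATP5PO. Of the rotor it held ATP5F1C, ATP5F1D and ATP5F1E, and not the c-ring genes. The 23 core subunits had a median log2 fold change of 0.05 and the 54 other tested members 0.24, a difference described here without a test. The core subunits also had the longer median gene length. Across 73 members the log2 fold change at 6 h had a Pearson r of -0.39 with log2 length. Across 10969 genes above 4 CPM it was -0.15. The part of length in this difference was not tested.

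**Figure D2:**
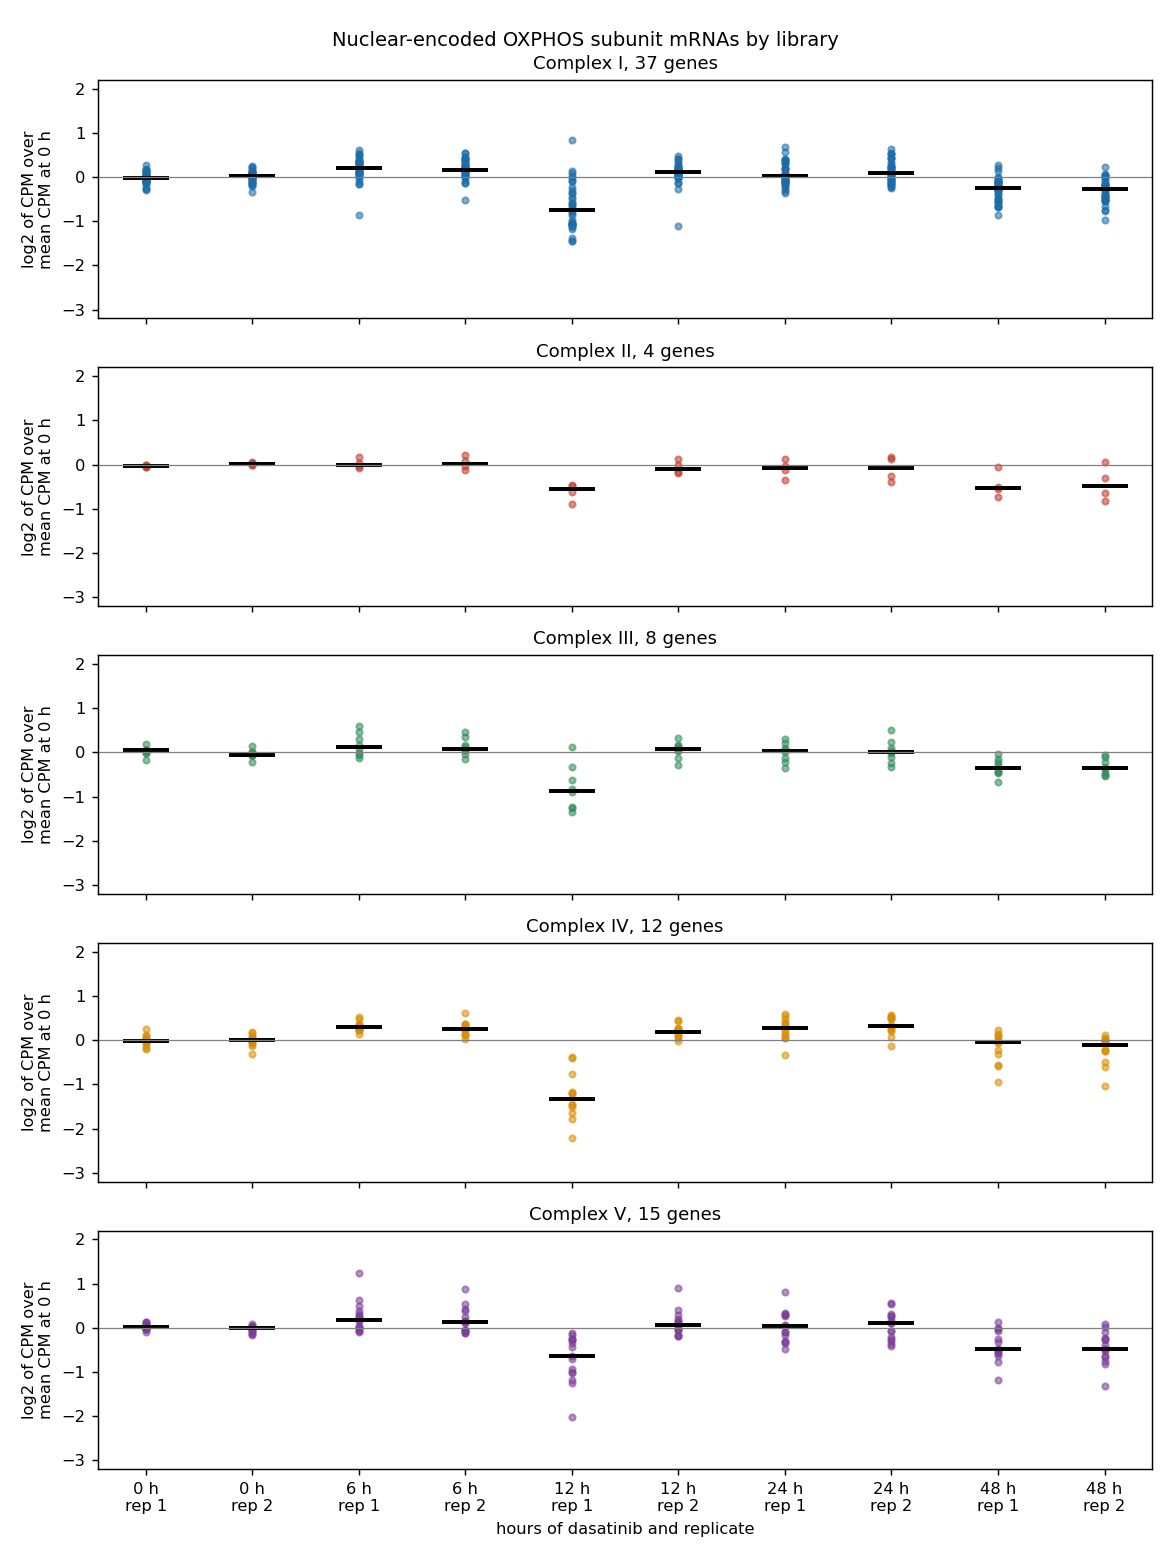
Log2 of CPM in each library over the mean CPM at 0 h (0.5 added to both) for tested members, 1 panel a complex, with points for genes and black bars for medians, and with COX7A1, at or under 0.590 CPM, left out of complex IV. Complex IV medians began at 0.29 and 0.26 at 6 h, passed through -1.33 and 0.19 at 12 h, 0.28 and 0.33 at 24 h, and ended at -0.05 and -0.11 at 48 h.

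At 12 h the result was set by which library was used. With all 10 libraries edgeR called 0 members higher and 0 lower, where 3.93% of all genes were higher and 3.22% lower, and the members' median was -0.27. At an unadjusted p under 0.05, 0 members were higher and 6 lower, and DESeq2 called 0 higher and 2 lower. Without replicate 1 edgeR called 7 higher and 2 lower, with a median of 0.11 and backgrounds of 8.26% and 8.61%. Without replicate 2 it called 1 higher and 62 lower, with a median of -0.78 and backgrounds of 20.1% and 24.8%. Each of these fits takes the spread of the lone 12 h library from the other times. Both 12 h libraries exceeded both 0 h libraries for 1 member and lay under both for 11, where 22% of all genes were above and 23.3% below.

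At 24 h members lay on both sides of the 0 h cells. Both 24 h libraries were above both 0 h libraries for 33 members and below for 20, where 35.4% of all genes were above and 34% below. In complex IV 9 of 13 were above and 1 below, and in complex V 7 of 15 were above and 7 below. By edgeR with all 10 libraries 0 members were called in either direction, where 9.73% of all genes were higher and 10.2% lower. At an unadjusted p under 0.05, 2 were higher and 3 lower, and DESeq2 called 2 higher and 1 lower. Without 12 h replicate 1 edgeR called 22 higher and 9 lower, where 19.5% of all genes were higher and 20.8% lower.

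Members called at 24 h without that library are given by role, with no test of the difference. Of the 54 members outside the core list 20 were higher and 3 lower, and of the 23 core subunits 2 were higher and 6 lower. With all 10 libraries the log2 fold change at 24 h had a Pearson r of -0.34 with log2 length across 73 members. Across 10969 genes above 4 CPM it was 0.07. The part of length in this split was not tested. COX6C, an accessory subunit of complex IV, read 85.4 and 90.3 CPM at 0 h and 128 and 129 CPM at 24 h. NDUFA1 read 63.2 and 62.2 CPM at 24 h, higher than both of its 0 h values. The core subunits ATP5F1B (911 and 893 CPM), SDHB (81.7 and 79.0 CPM) and UQCRFS1, the Rieske iron-sulphur protein of complex III (127 and 129 CPM), lay below both of their 0 h values. Without 12 h replicate 1 their edgeR adjusted p were 0.000235, 0.000174 and 0.000484, and that of COX6C was 1.48e-06.

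At 48 h subunits of 4 of the 5 complexes were lower than at 0 h. By edgeR with all 10 libraries 0 members were higher and 15 lower, 19.5% of the 77 tested, where 16% of all genes were higher and 16.3% lower. The share of members called lower was therefore near the background. At an unadjusted p under 0.05, 0 members were higher and 20 lower, and DESeq2 called 0 higher and 18 lower. The median log2 fold change was -0.32, against 0.01 over all genes, and 63 of 77 members had a negative value. Both 48 h libraries lay under both 0 h libraries for 53 members and above both for 2, where 37.3% of all genes were below and 37.7% above. Without 12 h replicate 1 edgeR called 0 higher and 47 lower, 61.0% of the 77, where 24.5% of all genes were higher and 26% lower, and all 15 were among the 47. Their adjusted p in that fit ran from 4.35e-13 (ATP5MC1) to 0.00232 (ATP5PO) by edgeR. Leaving out 1 library of another time than 12 h gave fewer calls. The count was 5 or 6 when it was a 0 h library, 5 when it was a 48 h library and 8 when it was a 6 h or 24 h library.

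With each library's trend with gene length removed, the 48 h count became 2 higher and 12 lower and the median -0.084. Without the 12 h libraries and with the trend removed, 14 were higher and 24 lower. The split of higher and lower calls at 48 h thus depended on the treatment of length.

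**Figure D3:**
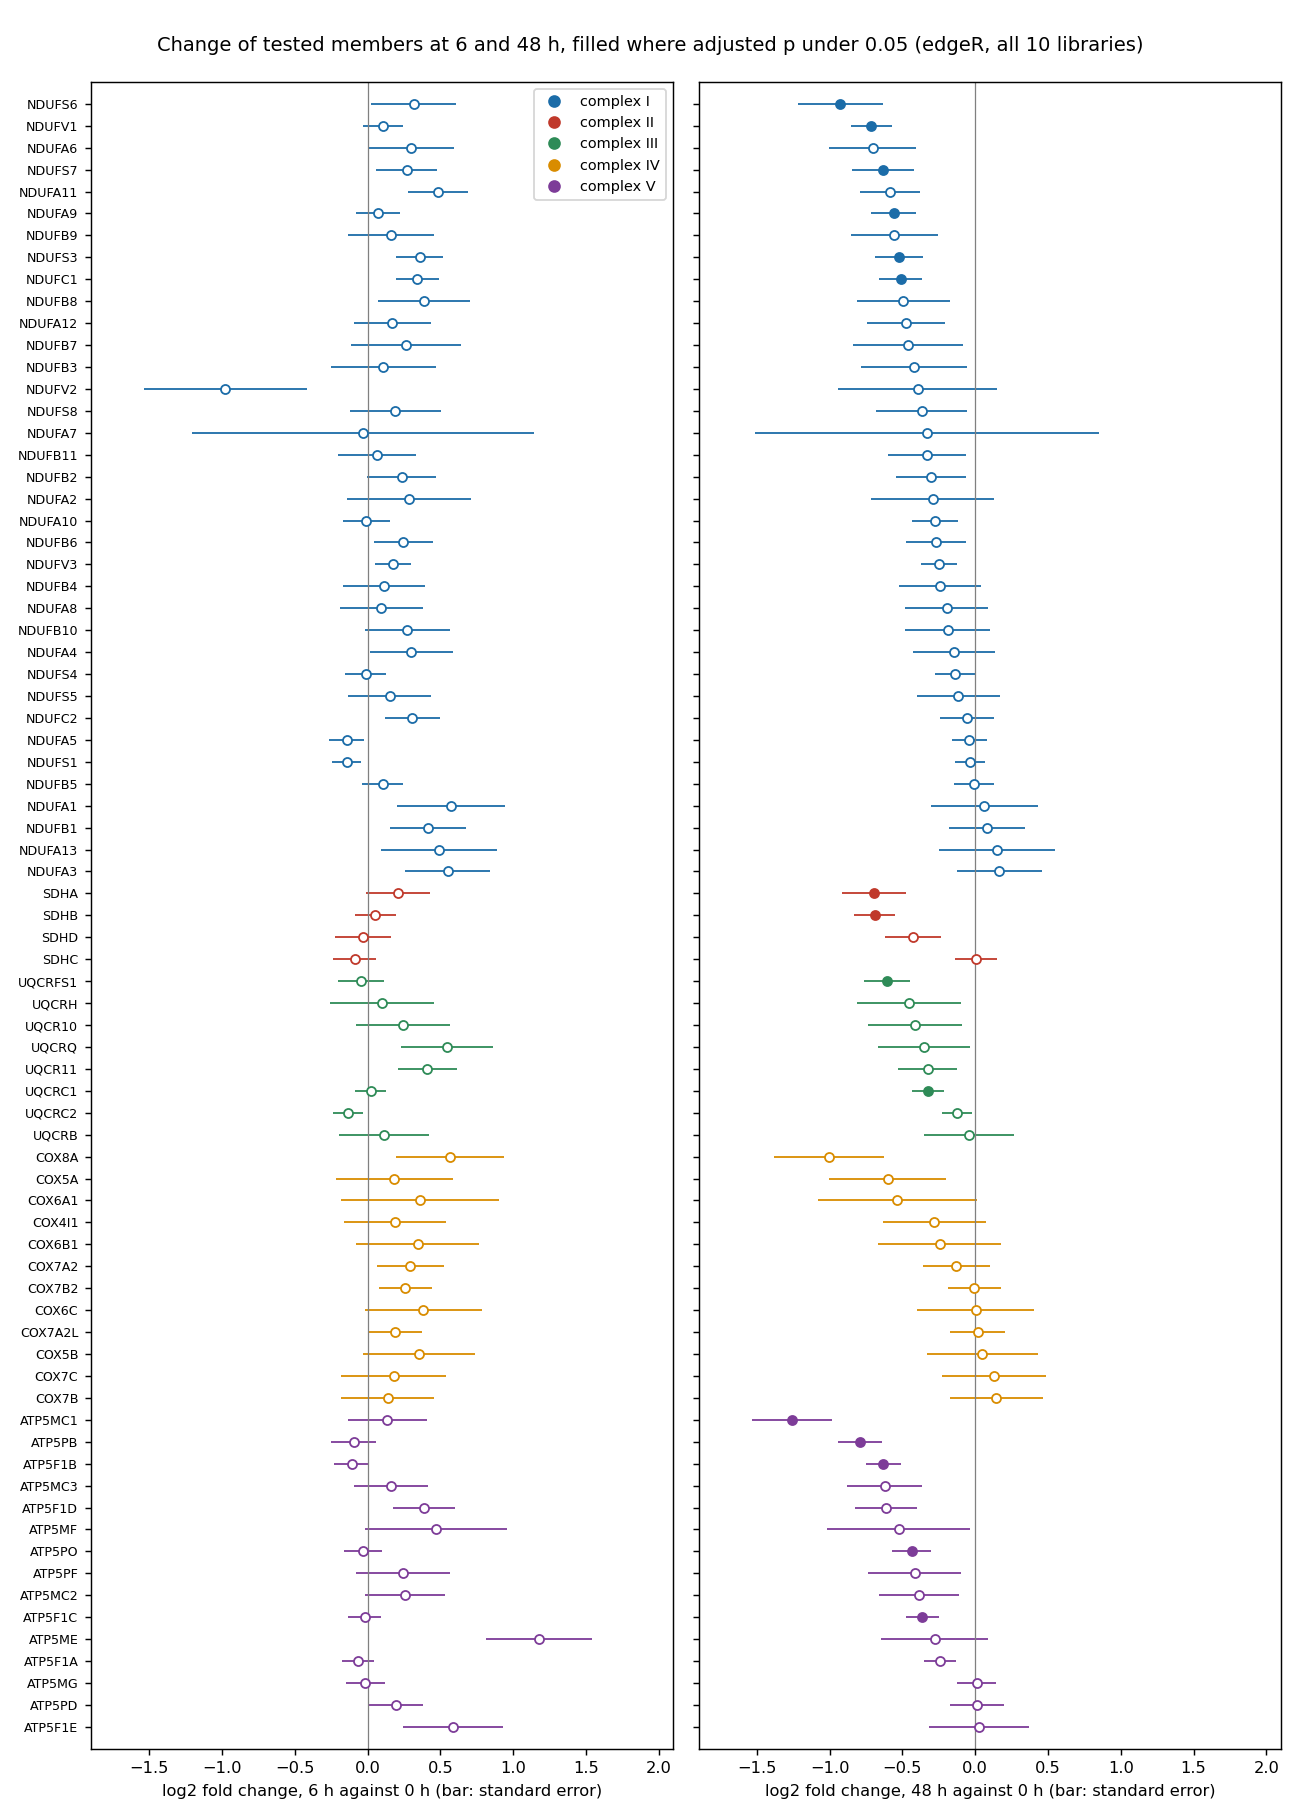
Log2 fold change with standard error of tested members at 6 h (left) and 48 h (right) against 0 h, coloured by complex, with filled points where the edgeR adjusted p was under 0.05 with all 10 libraries and with COX7A1 left out for its width and 1 other member not shown. No point is filled at 6 h, and the 15 filled points at 48 h all lie below 0, with ATP5MC1 lowest at -1.26.

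Complex V held the largest fall. Of its 15 tested genes 5 were lower at 48 h, and more of them without 12 h replicate 1. Over all genes 16.3% were lower, or 26% without that library, for this count and for those by complex below. ATP5MC1 (chr17:48892765-48895871, hg38, plus strand), 1 of the c-ring genes, was at 103 and 103 CPM at 0 h, 114 and 112 at 6 h, 45.1 and 99.3 at 12 h, 74.1 and 83.1 at 24 h, ending at 44.8 and 41.2 at 48 h. Both 24 h and both 48 h values were under both 0 h values. It fell by 1.26 ± 0.28 on the log2 scale (SE, n = 2 a time, edgeR adjusted p = 0.0061, or 4.35e-13 without 12 h replicate 1). The other c-ring genes moved less. ATP5MC3 went from 197 and 181 CPM to 127 and 119 CPM (log2 fold change -0.62, edgeR adjusted p = 0.0914, or 3.54e-08 without that library), and ATP5MC2 from 147 and 144 CPM to 102 and 120.0 CPM (-0.39, edgeR adjusted p = 0.316, or 0.000238).

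ATP5PB was at 464 and 481 CPM at 0 h and at 277 and 269 CPM at 48 h, without overlap, a fall by 0.79 ± 0.15 on the log2 scale (SE, edgeR adjusted p = 0.00311). ATP5F1B went from 1132 and 1156 to 737 and 739.6 CPM, falling by 0.63 ± 0.12 (SE, edgeR adjusted p = 0.00297). Smaller falls passed for ATP5F1C, the gamma subunit of the rotor, at -0.36, and for ATP5PO, the oligomycin sensitivity subunit of the stalk, at -0.44. Of 19 alternative fits, ATP5F1C did not pass in 10 and ATP5PO in 11. ATP5F1A, the alpha subunit that alternates with beta in the catalytic head, had a log2 fold change of -0.24 ± 0.11 (SE) with an edgeR adjusted p of 0.117, and 0.00449 without 12 h replicate 1. ATP5F1E was back at 117 and 101 CPM, among its 0 h values.

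In complex I 6 of 37 subunits were lower at 48 h, and 22 without 12 h replicate 1. With all 10 libraries the share of complex I called lower was near that over all genes, of which 16.3% were lower. NDUFV1 (chr11:67605653-67612554, hg38, plus strand), which binds the flavin that accepts electrons from NADH, was at 120.4 and 136 CPM at 0 h and at 81.4 and 75.2 CPM at 48 h. It fell by 0.71 ± 0.14 on the log2 scale (SE, edgeR adjusted p = 0.00319). NDUFS6, a zinc-binding accessory subunit, was at 40.5 and 47.0 CPM at 0 h, 52.0 and 57.1 at 6 h, then 24.0 and 22.1 at 48 h, and its fall by 0.93 ± 0.29 was the largest in complex I (SE, edgeR adjusted p = 0.0348). The core subunits NDUFS3 and NDUFS7 of the quinone-binding part passed at -0.53 and -0.63, as did the accessory subunits NDUFA9 at -0.56 and NDUFC1 at -0.51. NDUFS1 was at 142 and 143 CPM at 0 h and at 139 and 139 CPM at 48 h (log2 fold change -0.04 ± 0.10, SE, edgeR adjusted p = 0.82). Both of its 48 h values were under both 0 h values. NDUFA5 overlapped its starting values, with 71.6 and 74.7 CPM at 0 h and 68.8 and 73.5 CPM at 48 h.

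In complex II 2 of 4 subunits were lower, and 3 without 12 h replicate 1. SDHB (chr1:17018664-17054032, hg38, minus strand) was at 104 and 104 CPM at 0 h, 81.7 and 79.0 at 24 h, then 63.1 and 66.2 at 48 h, and fell by 0.69 ± 0.14 on the log2 scale (SE, edgeR adjusted p = 0.00425). SDHA went from 9.52 and 10.3 to 6.86 and 5.40 CPM, falling by 0.70 ± 0.22 (SE, edgeR adjusted p = 0.036). Of the membrane anchors, SDHD went from 105 and 105 to 70.9 and 85.2 CPM (-0.42, edgeR adjusted p = 0.121, or 0.000105 without 12 h replicate 1). SDHC, the other anchor, was at 70.4 and 74.6 CPM at 0 h and at 69.4 and 76.2 CPM at 48 h, which overlap (0.01 ± 0.15, SE, edgeR adjusted p = 0.983).

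In complex III 2 of 8 subunits were lower, where 16.3% of all genes were, and more of the 8 without 12 h replicate 1. UQCRFS1 went from 168 and 156 CPM to 102 and 111 CPM, a fall by 0.60 ± 0.16 on the log2 scale (SE, edgeR adjusted p = 0.0151). UQCRC1, a core protein on the matrix side, went from 365 and 333 to 287 and 271 CPM. It fell by 0.32 ± 0.11 (SE, edgeR adjusted p = 0.0438), and it did not pass in 13 of 19 alternative fits. Its partner UQCRC2 was at 179 and 179 CPM at 0 h and 163 and 165 CPM at 48 h, both lower, with a log2 fold change of -0.13 ± 0.10 (SE) and an edgeR adjusted p of 0.387. CYC1, the cytochrome c1 of the same complex, which the symbol rule leaves out, went from 271 and 276 to 143 and 136 CPM, falling by 0.97 (edgeR adjusted p = 0.000253).

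By edgeR 0 of the 13 tested complex IV subunits passed at 48 h with all 10 libraries, and 1 was lower at an unadjusted p under 0.05. Their median log2 fold change was -0.01, although COX8A (chr11:63974620-63976543, hg38, plus strand) was at 32.3 and 30.3 CPM, under both of its 0 h values and under both 6 h and both 24 h values. Its log2 fold change was -1.01 ± 0.38 (SE) with an edgeR adjusted p of 0.066, or 1.43e-10 without 12 h replicate 1, in which it stood at 27.1 CPM. DESeq2 with all 10 libraries called it lower. Without that library 5 of the 13 were lower, including COX5A at -0.60 and COX6A1 at -0.54. COX7C, COX5B and COX7A2L had positive log2 fold changes of 0.13, 0.05 and 0.02 with all 10 libraries and did not pass. COX7A1 was at 0 and 0.161 CPM at 0 h and 0.306 and 0.590 CPM at 48 h, with an edgeR adjusted p of 0.232.

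**Figure D4:**
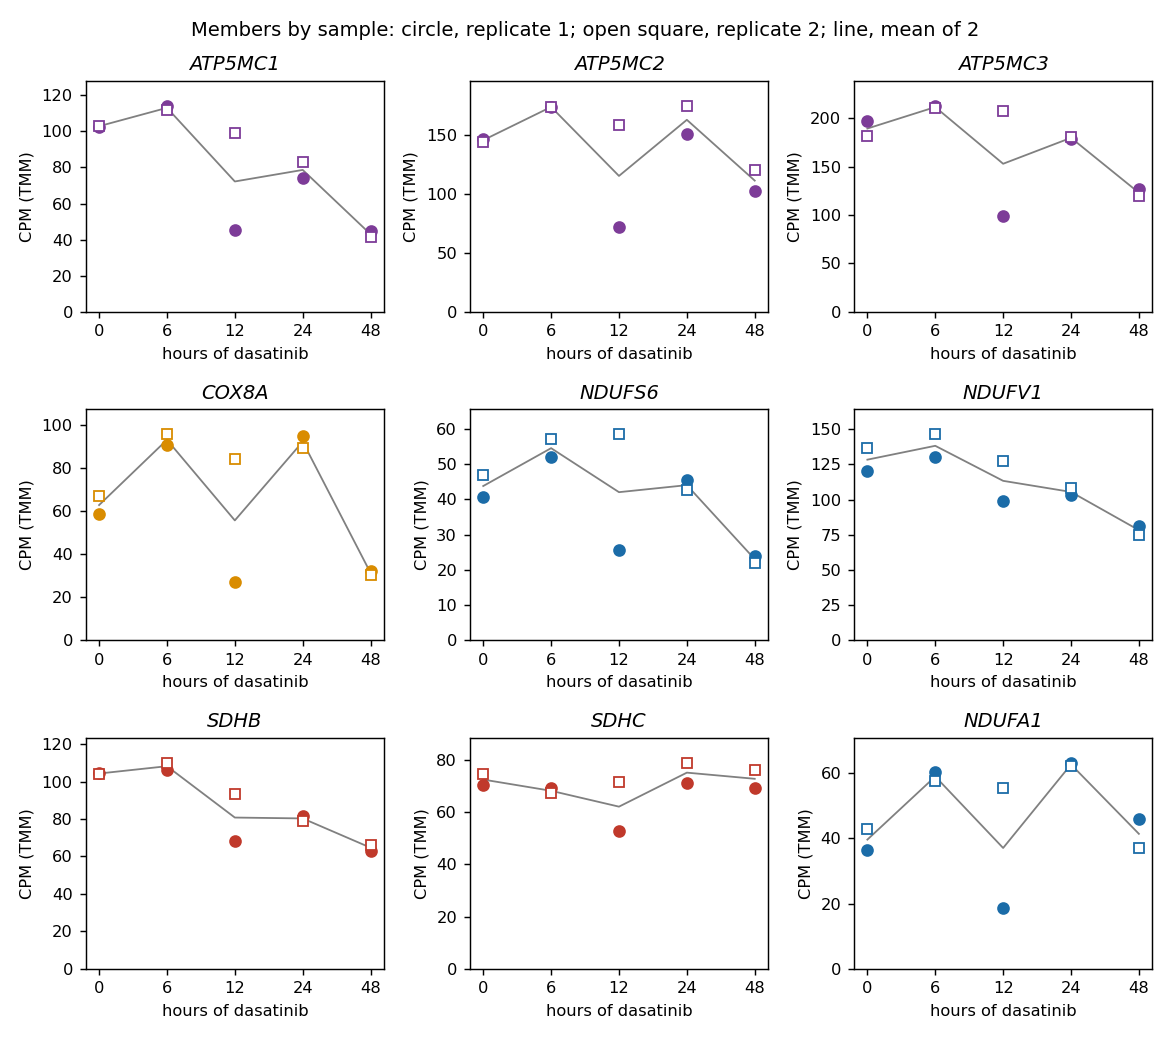
CPM (scaled by TMM) of 9 members at each time in hours, coloured by complex, with filled circles for replicate 1, open squares for replicate 2 and a line through the mean of 2. ATP5MC1 ended at 44.8 and 41.2 CPM from 103 and 103 CPM, SDHB at 63.1 and 66.2 CPM, and SDHC at 69.4 and 76.2 CPM, and replicate 1 at 12 h was the lower circle in each of the 9 panels.

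Several other subunits of the core list did not pass at 48 h with all 10 libraries. NDUFS8, which carries iron-sulphur centres of complex I, was at 111 and 94.7 CPM at 0 h and at 86.8 and 72.8 CPM at 48 h (edgeR adjusted p = 0.406, or 0.0046 without 12 h replicate 1). ATP5F1D, the delta subunit of the rotor, was at 123 and 111 CPM and at 83.8 and 69.6 CPM (edgeR adjusted p = 0.0518, or 5.63e-07). Each had both 48 h values under both 0 h values. COX4I1, a subunit known for its part in regulating complex IV, was at 280.5 and 291 CPM and at 231 and 239.8 CPM (edgeR adjusted p = 0.587, or 0.00209), and NDUFV2 stayed under 2 CPM in every library.

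Core and other subunits are set side by side at 48 h, with no test of the difference. With all 10 libraries 10 of 23 core subunits and 5 of 54 other members were lower, where 16.3% of all genes were, with medians of -0.39 and -0.28. With 12 h replicate 1 left out the counts were 17 of 23 and 30 of 54, where 26% of all genes were lower. The 15 members called lower had a median of 103 CPM at 0 h and a median length of 3138 bases, and the 62 not called had 63.4 CPM and 2234 bases. The part of level and length in this difference was not tested.

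The 48 h cells were also compared directly with the 6 h cells. By edgeR with all 10 libraries 0 members were higher and 23 lower at 48 h than at 6 h, where 16.2% of all genes were higher and 17% lower, and the median log2 fold change was -0.51. At an unadjusted p under 0.05, 0 members were higher and 30 lower, and DESeq2 called 0 higher and 26 lower. With 12 h replicate 1 left out edgeR called 0 higher and 61 lower, where 24.3% and 26.2% of all genes were called. Leaving out either 6 h or either 48 h library gave 6 to 11 lower, the 6 being without 48 h replicate 2. By complex 9 of 37 subunits were lower in complex I, 2 of 4 in complex II, 3 of 8 in complex III, 1 of 13 in complex IV and 8 of 15 in complex V. COX8A fell by 1.57 on the log2 scale (edgeR adjusted p = 0.00996), ATP5MC1 by 1.39 (edgeR adjusted p = 0.00341) and NDUFS6 by 1.24 (edgeR adjusted p = 0.00895). The comparisons of 48 h with 0 h and with 6 h share the 48 h libraries.

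Between neighbouring times, tested with all 10 libraries only, few members passed. Against 6 h, 0 members were called at 12 h by edgeR with all 10 libraries, where 0.502% of all genes were higher and 0.223% lower, and 14 members were lower at an unadjusted p under 0.05. Against 12 h, 0 were called at 24 h (3.43% and 4.15% of all genes), with 7 higher and 0 lower at an unadjusted p under 0.05. Against 24 h, NDUFC1 alone was lower at 48 h, by 0.93 on the log2 scale (edgeR adjusted p = 0.00981), where 1.89% of all genes were higher and 1.28% lower, and 20 members were lower at an unadjusted p under 0.05. NDUFC1 was at 37.1 and 38.6 CPM at 24 h and at 20.3 and 19.5 CPM at 48 h.

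Summed over the 82 members, the level was 11284 and 11585 TPM at 0 h, 13078 and 12297 TPM at 6 h, 7307 and 12550 TPM at 12 h, 12077 and 13014 TPM at 24 h, then 9181 and 9332 TPM at 48 h. Both 6 h and both 24 h libraries were above both 0 h libraries, and both 48 h libraries were below. As means with SD (n = 2), the sum was 11434 ± 213 TPM at 0 h and 9257 ± 107 TPM at 48 h. Complex V went from 3650.5 ± 46.6 to 2590.3 ± 86.1 TPM and complex IV from 2307 ± 27.3 to 1979 ± 16.7 TPM. Part of the complex IV sum was COX8A, at 435 TPM at 0 h and 228 TPM at 48 h.

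The 13 mRNAs of mitochondrial DNA, which encode the remaining subunits of complexes I, III, IV and V, did not follow the nuclear members. Their sum was 204108 and 185401 TPM at 0 h and 259711 and 244465 TPM at 48 h, so that both 48 h values were higher. The sum over the mitochondrial mRNAs divided by that over the nuclear members began at 18.1 and 16.0 at 0 h and measured 13.6 and 15.9 at 6 h. It reached 39.1 and 15.6 at 12 h, 19.8 and 15.3 at 24 h, then 28.3 and 26.2 at 48 h. The 48 h ratios were above those of every library but 12 h replicate 1. By edgeR with all 10 libraries 2 of the 13 were higher at 48 h and 1 lower, and without 12 h replicate 1 the counts were 6 and 1, with a median log2 fold change of 0.27 in both fits. Over all genes 16% were higher and 16.3% lower, or 24.5% and 26% without that library, so that 2 of 13 was near the background.

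COX2, here the mitochondrial gene for the complex IV subunit that accepts electrons from cytochrome c, was at 4158 and 3549 CPM at 0 h and at 8035 and 7585 CPM at 48 h. It rose by 1.02 on the log2 scale (edgeR adjusted p = 0.000956). ND6, the 1 mRNA of the list read from the opposite strand of mitochondrial DNA, rose by 1.40 (edgeR adjusted p = 0.0191), and ND2 fell by 0.54 (edgeR adjusted p = 0.0196). Without 12 h replicate 1 the adjusted p by edgeR were 6.21e-10 for COX2, 0.00475 for ND6 and 1.27e-05 for ND2. The rise of COX2 was in the complex in which none of the nuclear subunits passed by edgeR with all 10 libraries. This contrast did not hold without 12 h replicate 1, where COX8A (-1.01), COX5A (-0.60) and COX6A1 (-0.54) were among the nuclear subunits called lower. DESeq2 with all libraries also called COX8A lower.

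**Figure D5:**
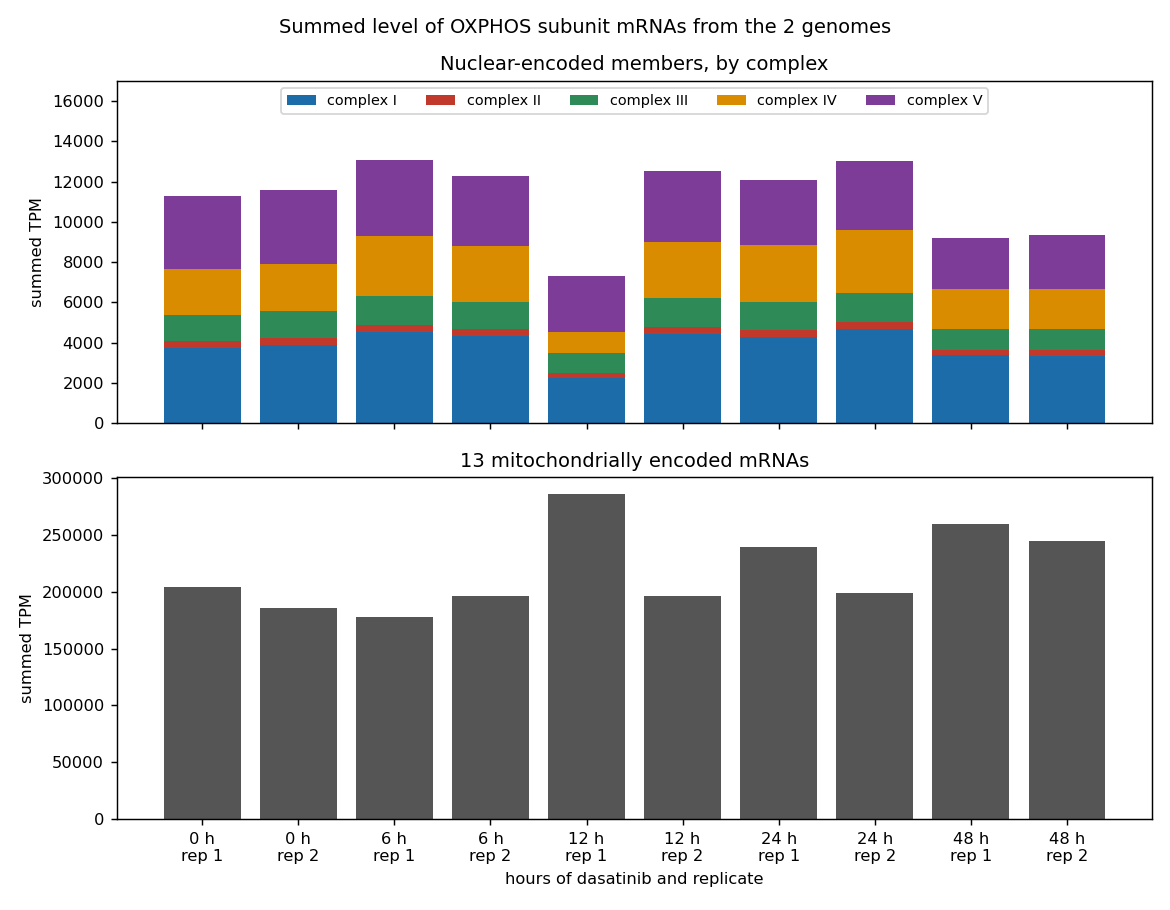
Summed TPM by library, for the nuclear members stacked by complex (upper panel) and for the 13 mRNAs of mitochondrial DNA (lower panel, other scale). The nuclear sum was lowest in 12 h replicate 1 (7307 TPM) and next in the 48 h libraries (9181 and 9332 TPM), which with 12 h replicate 1 had the highest mitochondrial sums.

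Genes that build or feed the complexes were counted at 48 h in the same edgeR fit, in which 16% of all genes were higher and 16.3% lower. Of assembly factors, 8 of 19 for complex I, 4 of 12 for complexes II and III, 6 of 25 for complex IV and 1 of 5 for complex V were lower, and 1 was higher, COA1. With 12 h replicate 1 left out the lower counts were 12, 7, 13 and 1, and 3 assembly factors were higher, where 24.5% of all genes were higher and 26% lower. BCS1L, which inserts the Rieske protein into complex III, fell by 1.38 on the log2 scale (edgeR adjusted p = 0.000567), the complex I factor NDUFAF4 by 0.98 (edgeR adjusted p = 0.00032) and the complex IV factor COA7 by 0.93 (edgeR adjusted p = 0.00109). BCS1L counts were 51.0 and 43.4 CPM at 0 h and 18.5 and 17.7 CPM at 48 h. Of 17 genes for the replication and expression of mitochondrial DNA, 11 were lower and 0 higher (11 and 1 with 12 h replicate 1 left out). They included TFAM, which packages mitochondrial DNA and starts its transcription, at -0.70, and the polymerase gene POLG at -0.56.

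Of 14 transcription regulators tied to mitochondrial biogenesis, 5 were lower and 1 higher (6 and 1 with 12 h replicate 1 left out). PPARGC1A, a coactivator of that programme, was at 3.80 and 5.28 CPM at 0 h and 11.7 and 13.9 CPM at 48 h, and passed the test (edgeR adjusted p = 0.0116). The related PPRC1 fell by 0.80, GABPB1, a subunit of the ETS-type factor GABP, by 0.84, and MYC by 0.90. Of 27 genes of the citric acid cycle and pyruvate dehydrogenase, 8 were lower and 3 higher (14 and 6 with 12 h replicate 1 left out). The 3 were PDK4, PDK3 and PDK1, kinases that switch off pyruvate dehydrogenase, at 2.16, 1.15 and 0.77, and the lower ones included fumarase (FH) at -0.87 and citrate synthase (CS) at -0.65.

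Of 25 carriers and cofactor genes, 10 were lower and 1 higher (13 and 2 with 12 h replicate 1 left out), the lower ones including PDSS1 of ubiquinone synthesis at -1.75, the uncoupling protein UCP2 at -1.49 and the ADP/ATP carrier SLC25A5 at -0.94. Of 8 OXPHOS subunits that the symbol rule leaves out, CYC1 and NDUFAB1 were lower and none higher, and with 12 h replicate 1 left out 4 were lower. Among tested ribosomal protein genes, 39 of 77 mitochondrial and 22 of 83 cytosolic ones were lower and 0 were higher, and with 12 h replicate 1 left out 64 and 65 were lower, where 26% of all genes were. The genes named from these lists passed in the same direction in both fits, with adjusted p of 5.32e-07 (PPARGC1A) or less by edgeR without 12 h replicate 1. These counts, like those of the members, come from comparisons that share the 0 h and 48 h libraries.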

How the data were processed

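RNA-seq of 10 MDA-MB-231 libraries (2 replicates at 5 times) was analysed. Per the labels and the study's methods, the authors used Trim Galore for trimming, STAR 2.5.2b for alignment (hg38) and featureCounts for gene counts. The annotation, the strand setting and the step to TPM are not given in the sources used here. The deposited raw counts (whole numbers per gene symbol) were used for tests and the deposited TPM for levels and summed levels. No column belonged to another sample.

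Members, lists and tests were chosen with earlier results of these data known. Counts were filtered (edgeR filterByExpr by time, 15727 genes kept), TMM-scaled and fitted over all 5 times in edgeR 4.0.16 (R 4.3.3, robust quasi-likelihood, Benjamini-Hochberg adjustment over all genes tested, call at 0.05). The fit called 22.4%, 91.0% and 100% of genes simulated with 1.5-, 2- and 4-fold changes for 48 h against 0 h, with 6 false calls among 15275 genes. In that simulation the changed genes were over 5 CPM, every gene had the spread expected at its level, and no 12 h library stood apart. The shares thus do not carry over to members with a wider spread, such as COX8A (-1.01 ± 0.38, SE, edgeR adjusted p = 0.066). Log2 fold changes are edgeR's, and CPM are per TMM-scaled library. Gene length was derived from the deposited counts and TPM. For 62 members it lay within 0.5% of the gene's summed exonic bases in GENCODE v44. The study's own tool, DESeq2 (1.42.0), and limma voom with quality weights (limma 3.58.1), other scaling and filtering, leave-one-out, a replicate block, length-trend offsets and fits of the groups compared alone served as alternatives. Without 12 h replicate 1, 16555 genes were tested.

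Named members were paralogous isoforms, core subunits, and per complex up to 3 members a direction, by smallest adjusted p, at 48 h and 2 at other times, and up to 3 per pathway list. The rule was also applied without 12 h replicate 1, a choice made after that library was seen to stand apart. NDUFS5, COX7C, NDUFA5, ATP5ME, ATP5MF and the members described for shared exons were named after their values were seen. Counting at a depth of 40942913 to 49133774 counts limits precision most for members with few counts. These include members above 1 CPM, such as NDUFA13, with 64 and 99 counts at 0 h, and ATP5ME, with 143 and 124. Values of 1 core subunit and 1 marker are not reported here, although both stay in the counts.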

Additional observations from a re-analysis of the deposited data

Results flagged for a closer look

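The change from 0 h differed between times for 23 members, which were lower at 48 h than at 6 h by the direct edgeR test of 48 h against 6 h with all 10 libraries. No member was higher. The largest of these differences were those of COX8A (-1.57), ATP5ME (-1.46) and ATP5MC1 (-1.39). With 2 libraries a time, no test for an outlying value within a time was run.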

How the results depend on the processing

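Counts are given as higher and lower members, with all 10 libraries as reported. Without a filter on low counts, 5 were higher at 6 h, 11 lower at 12 h, 8 higher at 24 h, 26 lower at 48 h and 45 lower at 48 h against 6 h. DESeq2 gave 1 higher at 6 h, 2 lower at 12 h, and 2 higher and 1 lower at 24 h. With only the groups compared in the fit, 22 were higher at 6 h, 21 higher and 9 lower at 24 h, 42 lower at 48 h and 61 lower against 6 h. Limma voom with quality weights gave 19 higher at 6 h, 16 higher and 8 lower at 24 h, 1 higher and 43 lower at 48 h (median -0.29) and 61 lower against 6 h. With length trends removed, the medians were 0.14 at 6 h, -0.084 at 48 h and -0.16 against 6 h, with 1 lower at 12 h, 8 higher at 24 h, 2 higher at 48 h and 2 higher against 6 h. With both 12 h libraries set aside (chosen after seeing the data), 25 were higher at 6 h, 22 higher and 9 lower at 24 h, 46 lower at 48 h and 61 lower against 6 h. With length trends removed as well, 15 were higher at 6 h (median 0.13), 28 higher and 7 lower at 24 h, 14 higher and 24 lower at 48 h (median -0.083) and 9 higher and 36 lower against 6 h (median -0.16). The cause of these differences was not tested.

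Leaving out 1 library at a time gave 0 to 25 higher at 6 h (median 0.17 to 0.22), 0 to 7 higher and 0 to 62 lower at 12 h (median -0.78 to 0.11), 0 to 22 higher and 0 to 9 lower at 24 h (median 0.04 to 0.12), 5 to 47 lower at 48 h (median -0.34 to -0.28) and 6 to 61 lower against 6 h (median -0.53 to -0.48). At 6 and 24 h and against 6 h, leaving out either 12 h library gave the highest counts. At 48 h the count was 47 with 12 h replicate 1 left out and 46 with replicate 2 left out.

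Calls at 48 h with all 10 libraries held in 19 of 19 alternative fits for ATP5F1B, ATP5PB, NDUFV1 and SDHB. They failed in 13 for UQCRC1, 11 for ATP5PO, 10 for ATP5F1C and 8 each for NDUFS3, NDUFS7 and SDHA. They failed in 5 for NDUFC1, 4 each for NDUFA9 and UQCRFS1 and 1 for ATP5MC1. NDUFS6 was not followed in this way. The log2 fold change at 48 h changed sign for COX6B1 (0.14 with length trends removed, with or without the 12 h libraries), COX7A2 (0.19 in both) and COX7B2 (0.45 in both, 0.015 with DESeq2, 0.016 with its size factors, 0.00098 with voom). It ranged across 0 on leaving out 1 library for ATP5F1E (-0.12 to 0.18), COX5B (-0.023 to 0.11), COX7A2L (-0.14 to 0.19), COX7B (-0.12 to 0.45), COX7B2 (-0.13 to 0.13) and SDHC (-0.065 to 0.069), none of which passed the test with all libraries.

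With the replicate number as a block, 0 members were called at 6, 12 and 24 h, 15 were lower at 48 h and 23 lower against 6 h, and no count changed. Same-numbered libraries deviated together by correlations of -0.04 to 0.10, so the numbers were not taken to pair samples.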
